A study of Mus musculus with 10 samples.

Results

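Neurog1, Neurog2, Neurog3, Neurod1, Atoh1, Olig1, Olig2, Myod1 and Myf5 are 9 of the 21938 protein-coding genes of GENCODE M21 on mm10. They were taken by name, 7 as neural genes (hereafter referred to as neural members) and 2, Myod1 and Myf5, as genes of skeletal muscle (myogenic members). The peak lists came from F123, an embryonic stem cell line (mESC) from the first generation of a cross between Mus musculus castaneus and S129/SvJae mice. Culture was with LIF and knockout serum replacement on a feeder layer of irradiated CF1 fibroblasts from mouse embryos, with 1 last passage free of feeders. 1 list stands for 2 biological replicates of H3K4me3 ChIP-seq and 1 for 2 biological replicates of ATAC-seq, so 4 of the 10 samples of the series are behind the values below. There was 1 cell line, 1 condition and 1 value per gene, and therefore no test was possible and all comparisons between genes are descriptions.

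All 9 genes encode basic helix-loop-helix (bHLH) transcription factors, which bind the E-box sequence CANNTG as dimers. The proneural and myogenic factors pair with the widely expressed E proteins, Id proteins block that pairing, and Hes and Hey factors repress several of the proneural genes. They commit progenitors to neurons, glia or muscle, and embryonic stem cells express most of them at very low levels or not at all. H3K4me3, trimethylation of lysine 4 on histone H3, marks promoters and is laid down at most CpG islands, also at many inactive developmental genes, where stem cells often hold the repressive mark H3K27me3 as well. H3K27me3 and RNA were not analysed here, so a peak below is not a statement on expression. ATAC-seq maps DNA that is open to the Tn5 transposase.

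The promoters differed widely in CG dinucleotides, the feature that defines a CpG island. The table of RefSeq promoters for GRCm38.p6, the assembly that mm10 names, matched 7 of the 9 genes, all except Olig1 and Myod1. The 250 bases before the RefSeq start of 4 of them are shown in the direction of transcription because they span the range from the CG-richest to the CG-poorest member. Each CG is in capitals.
Neurog1, chr13:56252181-56252430, minus strand: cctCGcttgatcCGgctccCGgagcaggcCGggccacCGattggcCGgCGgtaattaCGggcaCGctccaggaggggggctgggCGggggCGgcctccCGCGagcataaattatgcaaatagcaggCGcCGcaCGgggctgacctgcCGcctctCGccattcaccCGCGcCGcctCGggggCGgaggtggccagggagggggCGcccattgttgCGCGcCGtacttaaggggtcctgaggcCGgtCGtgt
Atoh1, chr6:64728875-64729124, plus strand: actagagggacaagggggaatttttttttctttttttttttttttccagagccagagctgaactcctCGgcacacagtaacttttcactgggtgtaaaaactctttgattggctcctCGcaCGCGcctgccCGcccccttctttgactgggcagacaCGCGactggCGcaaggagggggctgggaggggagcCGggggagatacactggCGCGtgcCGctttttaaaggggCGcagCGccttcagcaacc
Neurog2, chr3:127632886-127633135, plus strand: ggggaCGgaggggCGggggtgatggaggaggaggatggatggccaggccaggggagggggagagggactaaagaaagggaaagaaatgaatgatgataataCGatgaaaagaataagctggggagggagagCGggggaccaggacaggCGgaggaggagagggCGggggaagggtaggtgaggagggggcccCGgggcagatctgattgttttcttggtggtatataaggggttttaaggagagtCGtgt
Myf5, chr10:107486135-107486384, minus strand: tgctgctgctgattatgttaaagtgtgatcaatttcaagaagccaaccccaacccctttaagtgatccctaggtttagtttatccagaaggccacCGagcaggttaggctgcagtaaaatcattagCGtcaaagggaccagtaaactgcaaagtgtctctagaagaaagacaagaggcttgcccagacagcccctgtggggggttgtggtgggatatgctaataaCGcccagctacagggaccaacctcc
The Neurog1 sequence held 29 CG, more than 93.2% of the 32851 mouse promoters of this length, for which the median was 6. The count was 14 for Atoh1, 8 for Neurog2 and 3 for Myf5, and 70.6%, 57% and 29% of promoters held fewer. Neurod1 and Olig2 had 22 each and Neurog3 had 18, so that all 6 neural members in the table lay above the median and Myf5 below it. An E-box (CANNTG, its own reverse complement and so the same on both strands) occurred once in the 250 bases of Neurog3 and once in those of Neurod1, and in none of the other 5, against 66.2% of all promoters with at least 1.

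An H3K4me3 peak lay within 5 Kb of the start of all 9 genes, where 69.3% of protein-coding genes had one (99% of those with a CpG island near the start and 32.9% of those without). The peak covered the start itself at 8 of 9, all but Myf5, against 61.1% of coding genes. These shares have to be read beside the CpG islands. By a definition of at least 500 bp with GC of at least 55% and observed over expected CpG of at least 0.65, an island lay within 500 bp of the start at the 7 neural members and Myod1, and at 55.1% of coding genes. Of the 12080 coding genes with such an island, 96.3% had their start under an H3K4me3 peak, and of the 9858 without one 18% did. All 8 members with an island had a covered start and the 1 member without an island, Myf5, did not, which is the more frequent outcome in each class.

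The members stood further from the typical gene in the number and the strength of the peaks. At least 2 separate H3K4me3 peaks touched the 5 Kb window at 6 of 9 members, all of them neural, against 18.4% of all coding genes and 25.8% of those with an island. This was not particular to the members, since 20 of the 40 other bHLH genes described below also had at least 2. Neurog3 and Olig2 had 4 each, a count that 1.19% of coding genes and 1.68% of those with an island reached. Olig3 and Tcf21, among the other bHLH genes, also had 4. The peaks over the starts had low folds, while 7 of the 8, all but that of Neurog1, were wider than the median of 2203 bp over coding starts. The fold enrichment, which is the ratio of ChIP-seq signal to the background of the peak caller as the authors give it, ran from 6.23 at Myod1 to 19.2 at Neurog2 over the 8 covered starts, while the median over the 13408 coding genes with a covered start was 31.3.

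**Figure D1:**
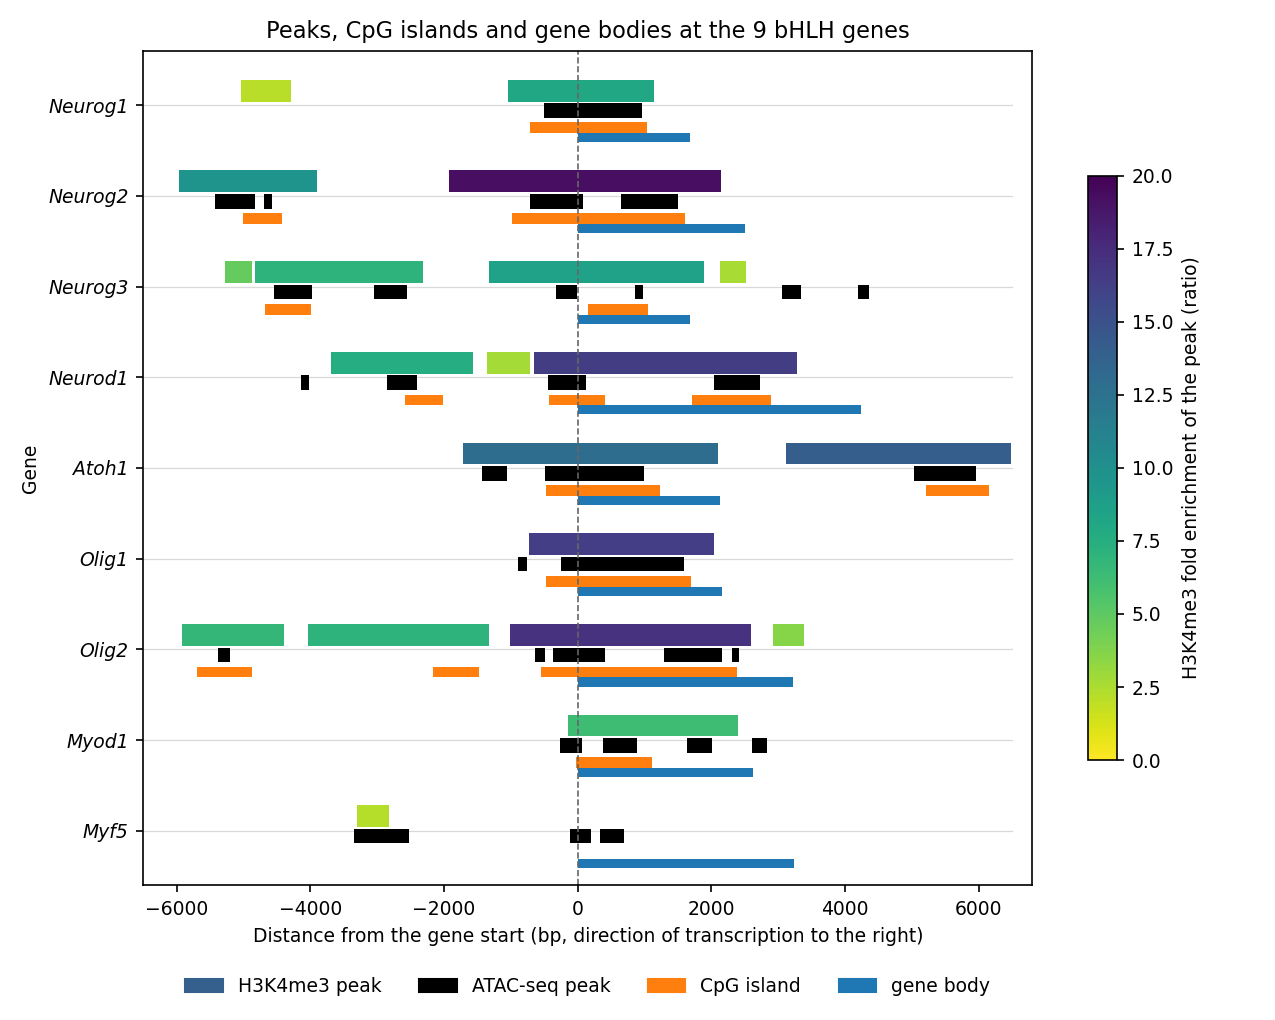
Map of the windows around the 9 gene starts, with distance from the start in bp on the x axis and 1 gene per row. For each gene the H3K4me3 peaks (colored by fold enrichment), ATAC-seq peaks (black), CpG islands (orange) and the gene body (blue) are drawn to scale, peaks that touch the 5 Kb window at their full length. The windows of the neural genes hold 1 to 4 H3K4me3 peaks each, that of Myod1 holds 1 that begins near its start, and Myf5 has a narrow peak upstream and none over its gene body.

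Of the 3 neurogenins, Neurog1 and Neurog2 start neurogenesis in sensory ganglia and the dorsal telencephalon, and Neurog3 starts endocrine differentiation in the pancreas. Neurog2 (mm10 chr3:127633135-127635631, plus strand) had the highest H3K4me3 fold of all 9 genes. Its start lay in a peak of 4059 bp with a fold of 19.2 and a −log10 q (how firmly the peak was called) of 170, from 1921 bp upstream to 2137 bp downstream. This peak was wider than 92.4% of the peaks over coding gene starts and its fold was above only 20.7% of them. Another H3K4me3 peak, 2069 bp wide with a fold of 9.66, lay 3902 to 5970 bp upstream, on a separate CpG island of 573 bp. The start island was 2588 bp long, the second longest at any member start, even though the 250 bases shown above are the poorest in CG of the 6 neural members in the promoter table. Of the 4 ATAC-seq peaks, 1 of 794 bp covered the start, 1 of 848 bp lay inside the gene, and the other 2 lay within the upstream H3K4me3 peak.

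Neurog1 (chr13:56250478-56252163, minus strand) had a narrower and weaker peak over its start, of 2190 bp with a fold of 8.06 and a −log10 q of 70.2. It was wider than 49.3% and stronger in fold than 4.97% of the peaks over coding starts. Yet this promoter had the highest GC of the 9, 68.8% in the 1001 bp centered on the start, with 89 CG in that span. Its single ATAC-seq peak of 1457 bp was wider than 99.1% of the ATAC-seq list and lay wholly on the 1750 bp island, from 499 bp upstream to 957 bp downstream. A second H3K4me3 peak 4284 bp upstream was near the limit of the list, with a width of 759 bp, a fold of 2.18 and a −log10 q of 2.12, and touched neither an island nor an ATAC-seq peak.

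Neurog3 (chr10:62133090-62134763, plus strand) had 4 H3K4me3 peaks, which covered 6243 bp of the 5 Kb window on both sides. The peak over the start was 3223 bp wide with a fold of 8.52, and held 100% of the 1674 bp gene. A peak of 2502 bp with a fold of 7.10 began 2319 bp upstream, and the 2 narrow ones, of 393 and 394 bp, had folds of 4.73 and 2.63. It was the only member whose start had no ATAC-seq peak, although 1 ended 12 bp upstream of it, and its 6 ATAC-seq peaks were the most of any member. Observed over expected CpG around the start was 0.506, the lowest of the neural members, and its 888 bp island began 157 bp inside the gene.

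Neurod1 and Atoh1 act at other steps of neural development, Neurod1 in neuronal differentiation and in endocrine cells, and Atoh1 in granule cell precursors of the cerebellum and in hair cells of the inner ear. At Neurod1 (chr2:79452521-79456751, minus strand) the peak over the start was 3925 bp wide with a fold of 16.4, and its summit was 2608 bp downstream of the start. That summit lay in a second island of 1190 bp within the gene and under an ATAC-seq peak 2044 to 2719 bp downstream. The peaks of 637 bp (fold 2.73) and 2123 bp (fold 7.60) lay upstream, so that H3K4me3 covered 6685 bp of the window, more than at 98.8% of the 15201 coding genes with a peak there. The start of Cerkl, a coding gene on the same strand, lies 34 bp upstream in the annotation, and the lincRNA Gm26755 starts on the opposite strand 2766 bp downstream, near the summit. The peaks of these genes cannot be told apart.

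Atoh1 (chr6:64729125-64731245, plus strand) had H3K4me3 on both sides of its 3′ end. The peak over the start was 3818 bp wide with a fold of 12.9, and the other, of 3364 bp and a fold of 14.1, began 3113 bp downstream of the start and past the end of the gene. Of the 8 members with a covered start, Atoh1 alone had a stronger peak elsewhere that reached into the window. The summit of the downstream peak lay 5590 bp from the start, on a 940 bp island. The summit also lay under an ATAC-seq peak of 920 bp, which began 5029 bp downstream, just outside the window. The start carried an ATAC-seq peak of 1471 bp, wider than 99.2% of the list.

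Olig1 and Olig2 direct the making of oligodendrocytes, and Olig2 also that of motor neurons. Their starts are 44315 bp apart on chromosome 16 and their H3K4me3 patterns were unlike. Olig1 (chr16:91269772-91271933, plus strand) had a single peak of 2780 bp with a fold of 16.3 and a −log10 q of 175, the highest −log10 q of the 9 genes. The ATAC-seq peak over its start was 1838 bp wide, the widest at any member and wider than 99.8% of the list, and it held the whole coding sequence. Olig2 (chr16:91225457-91228677, plus strand) had 4 H3K4me3 peaks over 7392 bp, the longest cover of the 9 and longer than at 99.4% of coding genes with a peak in the window. The peak over its start was 3605 bp wide with a fold of 17.1, and the others had folds of 6.77, 7.09 and 3.65. Olig2 also had the longest island total, 3743 bp in the window in 3 islands, and its 2 upstream H3K4me3 peaks each touched an island. The farther one held an ATAC-seq peak of 175 bp, 5202 bp upstream, and the nearer one held none. Another annotated gene, Gm49614, starts 2531 bp upstream of Olig2.

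Myod1 and Myf5 set muscle identity in myoblasts, and they differed from the neural members and from each other. Myod1 (chr7:46376474-46379099, plus strand) had 1 peak of 2547 bp over its start, with a fold of 6.23 and a −log10 q of 35.5, the weakest start peak of the 8. Only 3.27% of the peaks over coding starts had a lower fold. The peak began 151 bp upstream and ran 2395 bp into the gene, while those of the neural members reached at least 651 bp upstream. The Myod1 island of 1131 bp lay likewise almost wholly inside the gene, and observed over expected CpG around the start was 0.480. Its 4 ATAC-seq peaks were spread over the gene, 316 bp at the start, 516 and 367 bp inside, and 225 bp across the 3′ end.

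Myf5 (chr10:107482908-107486134, minus strand) had no CpG island by the definition above, though it had one when islands of 200 bp with GC of at least 50% and observed over expected CpG of at least 0.6 were counted. It had the lowest CpG content of the 9 genes, 27 CG in 1001 bp and an observed over expected CpG of 0.406. Its single H3K4me3 peak was 481 bp wide with a fold of 2.22 and a −log10 q of 2.03, and ended 2823 bp upstream of the start. This weak peak lay entirely within an ATAC-seq peak of 825 bp, which was wider than 91.5% of the list. The start of Myf5 had an ATAC-seq peak of 302 bp, and another of 366 bp lay inside the gene. Myf6, the neighboring myogenic gene, starts 8603 bp upstream on the same strand.

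The bodies of these genes are short, from 1674 bp at Neurog3 to 4231 bp at Neurod1, and H3K4me3 peaks lay over most of them. The covered part of the gene was 67.9% at Neurog1, 85.6% at Neurog2, 100% at Neurog3, 77.4% at Neurod1, 99.1% at Atoh1, 94.6% at Olig1, 91.2% at Myod1 and 0% at Myf5, and at Olig2 it was 2898 of 3221 bp. Of the 2123 coding genes within the same range of lengths, 58.9% had an H3K4me3 peak in the window, 27.9% had at least 50% of the body covered, and the median share of the body covered was 21.1%. At all 8 members with a covered start, the H3K4me3 peaks held 100% of the coding sequence. These coding sequences are only 642 to 1071 bp long. The same share was not computed for other coding genes, so whether it is unusual is not known. ATAC-seq peaks covered less of the body, 7.05% at Neurog3, 17.3% at Myf5 and 73.7% at Olig1. Of the coding sequence they held 18.4% at Neurog3, 47.8% at Myf5, 73.4% at Myod1 and 100% at Olig1.

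The members had a low fold for the width of their peaks. A total of 5791 coding genes had a start peak within the range of widths of the 8 members, 2190 to 4059 bp. The median fold of these genes was 35.8, and 5312 of them (91.7%) had a fold above 19.2, the highest of any member start. Among genes of this width, from 0.138% (Myod1) to 8.25% (Neurog2) had a lower fold than the member. Fold enrichment is a value of the peak caller and the list has no read counts, so its error is unknown.

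**Figure D2:**
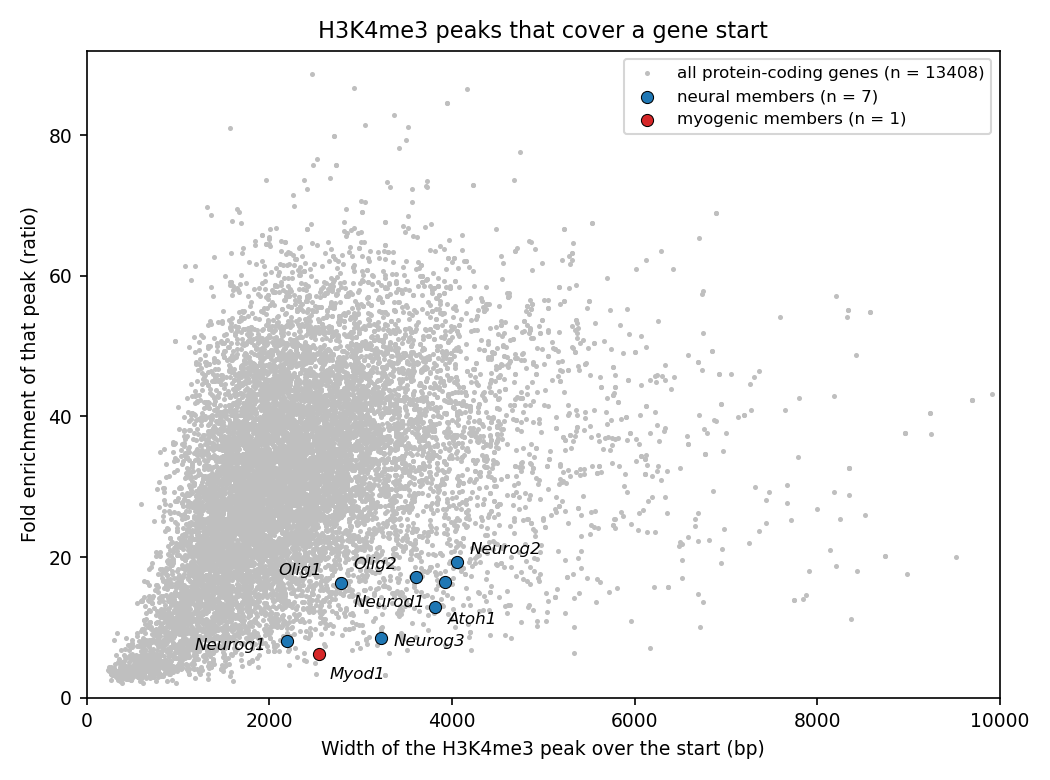
Width in bp (x axis) against fold enrichment (y axis, ratio) of the H3K4me3 peak over each protein-coding gene start, with 1 point per gene for 13408 genes. 2 genes with peaks wider than 10000 bp lie beyond the x axis, and Myf5 has no such peak. The 7 neural members (blue) and Myod1 (red) lie along the lower edge of the cloud, with folds of 6.23 to 19.2.

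Peaks on CpG islands were the stronger ones at the members. Of the 20 H3K4me3 peaks that touched the 9 windows, 14 (70%) touched an island, against 47.1% of the list. Those 14 had folds of 6.23 to 19.2 and widths of 1533 to 4059 bp, and the 6 others had folds of 2.18 to 4.73 and widths of 393 to 759 bp, so the groups did not overlap. The whole list had the same order, with a median fold of 27.7 for 15760 peaks on islands and 4.24 for 17689 off islands. There the groups overlapped over most of their range, however. Folds were 1.93 to 88.7 on islands and 1.34 to 60.1 off islands, and widths 221 to 14281 bp and 206 to 9082 bp. The median fold of the 14 member peaks was 9.09, below that of the list on islands, and their median width was 2740 bp, above its 2022 bp. All 14 islands within the windows touched an H3K4me3 peak, as did 74% of all 21523 islands. The shares of all islands and of the whole list are not limited to gene starts. Of coding genes with an island near the start, 99% had an H3K4me3 peak in the window.

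ATAC-seq peaks were found within 5 Kb of all 9 starts (81.3% of coding genes) and over 8 of 9 starts (62.5%). Of coding genes with an island, 99.9% had an ATAC-seq peak in the window and 93.9% over the start, and of those without one 58.6% and 24%. Neurog3, with an island, lacked the peak over the start, and Myf5, without one, had it. Of the 30 ATAC-seq peaks in the windows, 23 (76.7%) touched an H3K4me3 peak, against 21.1% of the whole ATAC-seq list. That list is not limited to gene starts, and no share for the windows of other genes is given here. In the other direction 14 of the 20 H3K4me3 peaks (70%) touched an ATAC-seq peak, below the 87.1% of the H3K4me3 list. The 6 that did not were found at Neurog1 and Neurod1 (1 each) and at Neurog3 and Olig2 (2 each), and 5 of the 6 also touched no island. The total length of ATAC-seq peaks in the window varied little, from 1424 bp at Myod1 to 1979 bp at Olig1, while that of H3K4me3 varied from 481 bp at Myf5 to 7392 bp at Olig2.

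The neural members had more H3K4me3 in the window than the myogenic ones. The covered length was 2780 to 7392 bp over the 7 neural genes, with a median of 5706 bp, and 2547 bp at Myod1 and 481 bp at Myf5. The groups did not overlap, but this holds for the members only. The 11 other neural bHLH genes described below had 0 to 5067 bp, on both sides of Myod1. Over all coding genes with a peak in the window the median was 2337 bp. The highest fold in the window was 8.06 to 19.2 in the neural group, and 6.23 and 2.22 in the myogenic one, again without overlap. Observed over expected CpG was likewise higher at each neural member, 0.506 to 0.851, than at Myod1 (0.480) and Myf5 (0.406). This too holds for the members only, since the 11 other neural bHLH genes had 0.070 to 0.943, on both sides of Myod1. GC content did not separate them, with 53.7% to 68.8% in the neural group and 59.9% and 51.6% in the other, and neither did the ATAC-seq cover, since Myf5 (1493 bp) exceeded Neurog1 (1457 bp). With 2 myogenic genes, lineage and CpG content cannot be told apart here. The part of CpG content in the difference was not tested.

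**Figure D3:**
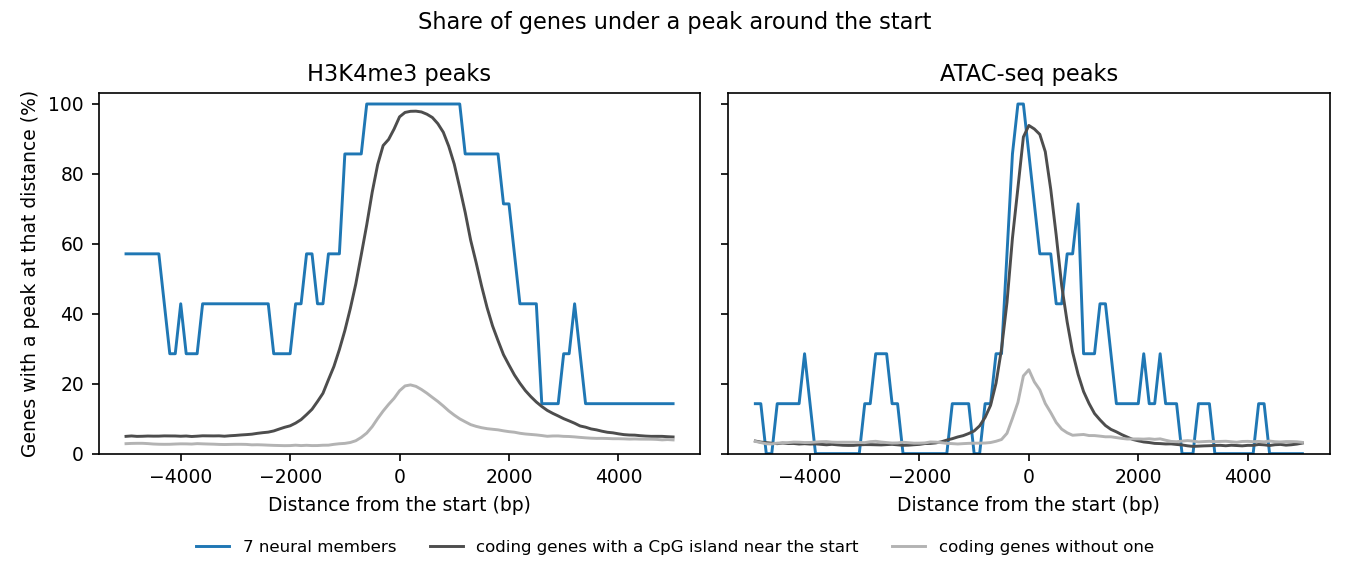
Percent of genes (y axis) that lie under an H3K4me3 peak (left) or an ATAC-seq peak (right) at each distance in bp from the start (x axis), for the 7 neural members (blue) and for coding genes with (dark gray) and without (light gray) a CpG island near the start. At 1000 bp upstream 85.7% of the neural members and 35.2% of the coding genes with an island were under an H3K4me3 peak, and at 3000 bp upstream 42.9% and 5.21%.

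Compared with coding genes that have a CpG island, the neural members carried H3K4me3 farther from the start. At 1000 bp upstream 85.7% of the 7 were under a peak, against 35.2% of the island genes, and at 2000 bp downstream 71.4% against 25.3%. At 3000 bp upstream the values were 42.9% and 5.21%. The median covered length of island genes with a peak in the window was 2515 bp, which all 7 neural members exceeded. This was not particular to them, since Myod1 (2547 bp) and the 3 E protein and 4 Id genes described below exceeded it too. The 11 other neural bHLH genes, with 0 to 5067 bp, lay on both sides of it.

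The other bHLH genes, 40 in number and grouped by role, place the members within their family. Of these, 38 had an H3K4me3 peak within 5 Kb and 32 over the start, against 69.3% and 61.1% of all coding genes. All 40 had an ATAC-seq peak within 5 Kb and 24 over the start, against 81.3% and 62.5%. The 24 of 40 were thus near the share of all coding genes. An island lay near the start at 29, against 55.1%. The 2 of the 40 without H3K4me3 within 5 Kb were Neurod4, a neuronal differentiation gene, and Myog, the factor of terminal muscle differentiation. Myog still had 6 ATAC-seq peaks over 1403 bp. Myf6, the remaining myogenic gene, had 441 bp under H3K4me3, so that Myod1 was the only one of the 4 myogenic factors with more than 481 bp.

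The 11 other neural bHLH genes had a median cover of 2606 bp, shorter than the 5706 bp of the neural members, and highest folds of 9.94 to 19.8 at the 10 with a peak, much like the members. Neurod2, a factor of cortical neurons, was the longest at 5067 bp. The 10 other mesodermal genes had a median of 3089.5 bp, from 1412 bp at Mesp2 (somites) to 6643 bp at Hand1 (heart and trophoblast). Both blood genes had a peak, with 5029 bp at Tal1 and 3369 bp at Lyl1. The highest folds of the mesodermal genes were 8.47 to 35.5, with a median of 19.9, and those of Tal1 and Lyl1 were 20.9 and 9.54. Both roles thus held folds above the 19.2 of Neurog2.

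The partners and antagonists mostly had folds above those of the members, as did some mesodermal and blood genes. Folds here are the highest in the window, whether or not that peak covers the start. A peak covered the start at 2 of the 3 E protein genes, all 4 Id genes and 7 of the 8 Hes and Hey genes. The 3 E protein genes had folds of 48.6 to 69.5, all above 19.2, with a cover of 2836 bp at Tcf12 to 4566 bp at Tcf4. The 4 Id genes had folds of 19.6 to 25.6, above every member, and the longest cover of any role by median, 5487.5 bp, apart from the neural members themselves, from 3355 bp at Id4 to 8100 bp at Id2. The 8 Hes and Hey genes had folds of 18.3 to 61.5 and a cover of 1122 bp at Heyl to 8264 bp at Hes7.

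**Figure D4:**
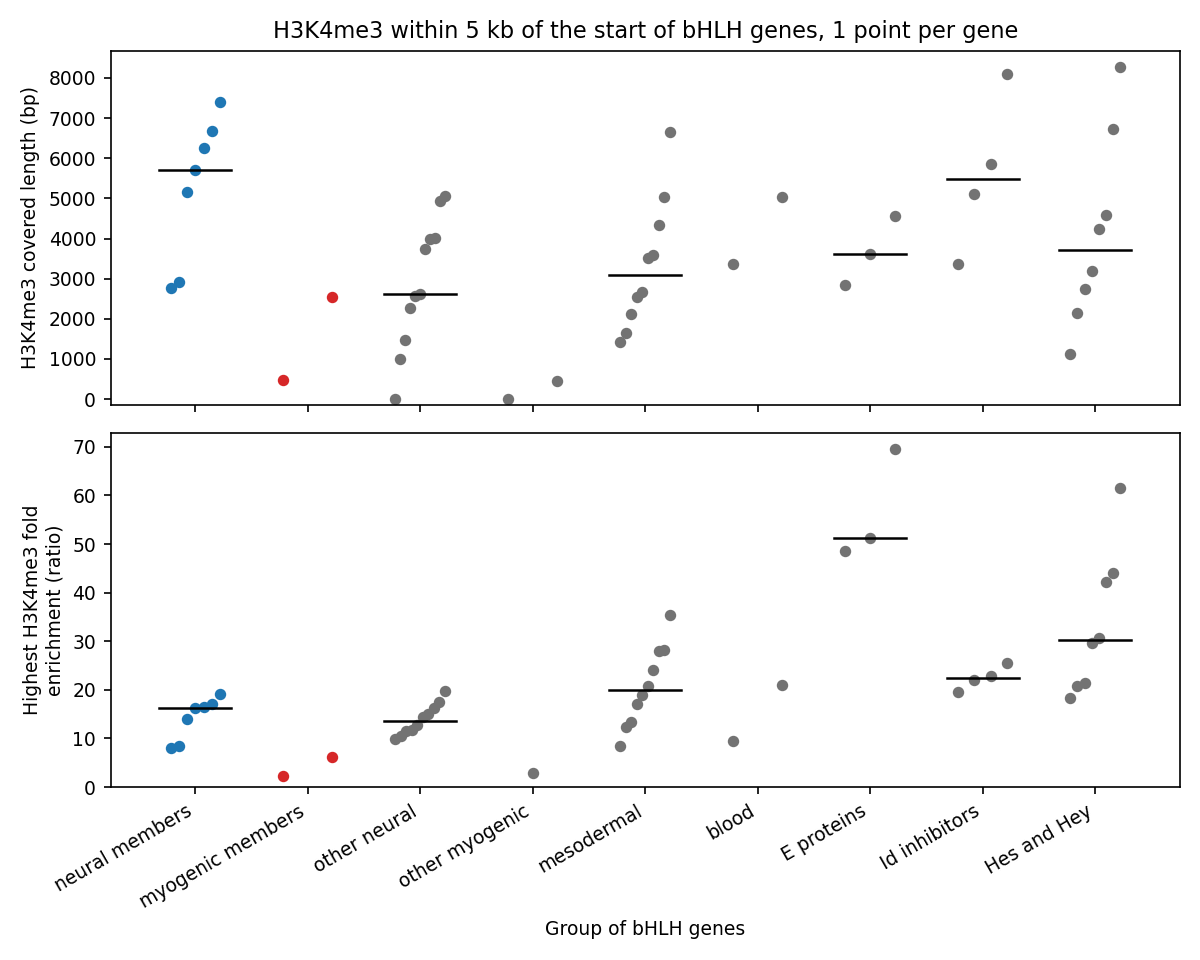
H3K4me3 covered length in bp (top) and highest fold enrichment (bottom, ratio) within 5 Kb of the start of bHLH genes by role, with 1 point per gene and a line at the median of groups of 3 or more. Genes without a peak are drawn at 0 bp in the top panel and left out of the bottom one. Covered lengths overlap between most roles, and the folds of the 3 E protein genes lie above those of all 9 members.

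The labelled cell type was checked at marker genes. Of 6 stem cell markers (Pou5f1, Nanog, Sox2, Zfp42, Esrrb and Klf4), 6 had an ATAC-seq peak over the start and 5 an H3K4me3 peak over the start, with folds of 14.9 to 42.9. Esrrb had no H3K4me3 peak within 5 Kb. Of 6 fibroblast markers (Col1a1, Col1a2, Col3a1, Thy1, Pdgfrb and Twist2), 5 had an H3K4me3 peak over the start, with highest folds of 3.21 to 20.4 over all 6, and 5 had an ATAC-seq peak there. Twist2 was also counted among the 10 other mesodermal bHLH genes above. The presence of a peak thus did not separate the marker lists, and their folds overlapped. The 5 start peaks of the stem cell markers were 4301 to 8186 bp wide and the 5 of the fibroblast markers 1233 to 2658 bp, without overlap. Over the 13408 coding genes with a covered start the median width was 2203 bp and the 90th percentile 3805 bp. The fibroblast widths were therefore ordinary, and those of the stem cell markers were wide. The start peaks of the 8 members, 2190 to 4059 bp wide, were narrower than those of the 5 stem cell markers. The part of feeder cells in the values above was not tested.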

How the data were processed

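H3K4me3 ChIP-seq and ATAC-seq of F123 cells were analysed from 1 deposited peak list each. PLAC-seq and input samples were not analysed here. For H3K4me3 the authors ran the ENCODE histone pipeline. Its deposited values are the fold enrichment (a ratio), the −log10 p-value and q-value, a display score (p and score not used here) and the summit. Its aligner and threshold are not given in the sources used here, and its build, mm10, is as per the labels. For ATAC-seq the submitters' notes name SAMtools, Bowtie 1.1.2, bedtools 2.27.1 and MACS2 2.1.1.20160309. The authors shifted read ends for the Tn5 insertion and kept peaks found in both replicates, and the deposited list holds positions only. Neither list has read counts, so depth is unknown, and no value has a replicate error. The ATAC-seq caller was run at a permissive p threshold, and summits were called, so widths depend on that choice.

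Gene starts are the 5′ ends of GENCODE M21 protein-coding genes on chromosomes 1 to 19, X and Y. A peak was counted when it shared at least 1 bp with the window of 5000 bp on either side. Covered length is the part of the window under peaks. CpG islands were computed from GRCm38.p6 sequence without repeat masking, and each percent of all genes comes from the same rule. Python 3.11.15, numpy 2.4.6, pandas 2.3.3 and matplotlib 3.10.9 were used, and the overlaps were checked on simulated data and with bedtools 2.31.1. The members, the other bHLH genes and the markers were chosen with earlier results of these data known. All 9 members are named, and in each other role the genes with the longest and the shortest H3K4me3 cover and those without a peak. Folds of the other roles are given as ranges, those of the blood genes singly, and that of Myf6 is left out. Alternatives changed the window, the definition of the start, the overlap, the peak threshold and the island definition.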

Additional observations from a re-analysis of the deposited data

How the results depend on the processing

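All 29 alternative values of the gene counts stayed within 1.5 times the count reported. Part of this was fixed in advance. A count of 9 of 9 cannot rise, and a window of 10 Kb can only keep or add genes. The member gene bodies lie inside the 5 Kb window, so adding them could not change a member count. The members with an H3K4me3 peak numbered 8 in place of 9, without Myf5, in a window of 1 Kb and with a −log10 q of at least 5 or at least 20. The members with a CpG island numbered 9, with Myf5, for islands of 200 bp, GC of at least 50% and observed over expected CpG of at least 0.6. The other bHLH genes with an H3K4me3 peak numbered 35 to 39. The median covered length of the neural members, 5706 bp, became 2001 bp in a window of 1 Kb and 6776 bp in one of 10 Kb. That of the myogenic members, 1514 bp, became 576 bp and 1734.5 bp in those windows, and 1273.5 bp with either −log10 q threshold. No paired analysis was possible because each list merges its replicates. The lists give neither depth nor the spread between replicates, so a gene without a peak may lie under the threshold of the caller.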
